A study of Paralichthys olivaceus with 2 samples.

Results

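The genes described here are 53 genes of middle abundance that had a higher share of the counts in larvae of Japanese flounder (Paralichthys olivaceus) given thyroid hormone than in untreated larvae. They were chosen from the 21787 genes of the deposited table by their counts. A member has at least 100 and under 5000 counts over both libraries, a coding length under 9000 nt, and a share of the T3 library's counts at least 2.5 times its share of the control library's counts, with 0.5 added to each count. Genes that met the count and length limits are called eligible here. They numbered 7748, so the members were 0.684% of the eligible genes. By the mirrored rule, with the T3 share at least 2.5 times lower, 137 eligible genes (1.77%) were chosen. Because the ratio itself chose the members, their ratios are given as a description without any test.

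The T3 group had received 3,3′,5-triiodo-L-thyronine at 0.01 mg/L for 10 days from 16 days after hatching (DAH). The control group received nothing. Both groups began with 1000 larvae and were sampled at 42 DAH as whole bodies, 16 days after the treatment ended, with 1 library each. The sources used here do not say how many larvae a library pooled. Differences between fish and between library preparations cannot be told apart from the treatment, and every interval below covers counting error only.

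Thyroid hormone acts mainly through nuclear receptors that sit on DNA and change transcription of their target genes when T3 is bound. In flatfishes it drives metamorphosis, in which the larva changes from a symmetrical swimmer to a bottom-living juvenile, with migration of an eye, a change of the larval muscle and gut, and the appearance of the adult pigment pattern. In whole-body RNA, more cells of a type and more RNA per cell cannot be told apart. The serial IDs of the table are not paired with gene names in the sources used here, so no member can be assigned a function, and the labelled tissue could not be checked against marker genes. Members are therefore identified by their rank in counts over both libraries, rank 1 having the most, and by coding length. Only 2 are given by ID.

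The T3 library held 6042338 gene counts and the control library 4943675, a depth ratio of 1.22. Together the members took 21929 counts in the T3 library, or 0.363% of its total (exact 95% interval 0.358 to 0.368), against 5648 counts in the control library, or 0.114% (0.111 to 0.117). The summed ratio was 3.18, with a counting interval of 3.08 to 3.27. This interval takes the list of genes as fixed, although the same counts chose the list. Counting error that carried a ratio past the limit is not allowed for, so the interval may lie too high. The median log2 ratio of the members was 1.49, against -0.10 over all eligible genes. This puts the members 1.58 above the eligible median on the log2 scale, and the 2.5-fold limit sets much of that distance. For this fixed list of genes the distance is the same under any scaling by arithmetic, since a scaling shifts all log2 ratios alike. A list chosen anew under another scaling can differ in it. The 137 genes of the mirrored rule took 0.297% of the T3 counts and 0.965% of the control counts. With library totals the lower set thus held more genes than the members, and its share in the control library was above the members' share in the T3 library. The other scalings gave 60 to 80 genes on the higher side, and the lower set is not given under them.

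**Figure D1:**
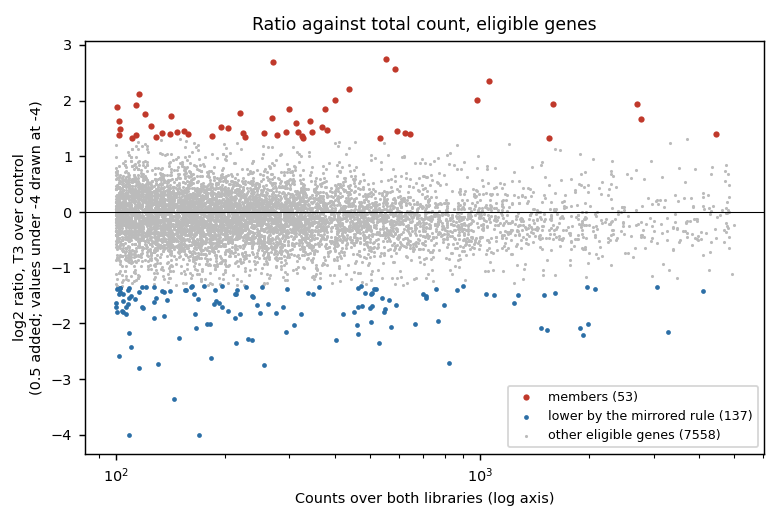
Log2 ratio of T3 over control against counts over both libraries for the 7748 eligible genes, each point a gene. The 53 members lie above the other eligible genes by construction, 40 of them under 500 counts, and 137 genes lie at or beyond the mirrored limit below. The lowest log2 ratios, down to -8.69, are drawn at the limit named on the axis.

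The count window held members at every level of counts. Of the 3510 eligible genes with 100 to 199 counts, 19 were members (0.541%). There were 21 members among 2779 genes with 200 to 499 counts (0.756%) and 7 among 891 genes with 500 to 999 counts (0.786%). Of the 568 genes with 1000 or more counts, 6 were members (1.06%). The share of eligible genes that were members was thus highest in the class with the most counts. That class had the lowest median log2 ratio over all its eligible genes, at -0.19, against -0.05 in the class of 100 to 199 counts. The genes of the mirrored rule also had their highest share there. In rising order of counts they made up 1.74%, 1.30%, 2.69% and 2.82% of the classes. The member shares rest on 19, 21, 7 and 6 genes and were not tested.

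The 6 members with at least 1000 counts held 51.1% of all member counts in the T3 library and 51.4% in the control library. The member with the most counts, GS_001888 (1947 nt), had 3400 counts in the T3 library and 1057 in the control library, or 563 and 214 counts per 1000000 (CPM). Its ratio was 2.63, and the counting interval of 2.46 to 2.82 was the narrowest of any member. It contributed 15.5% of the member counts in the T3 library and 18.7% in the control library, and without it the summed ratio was 3.30.

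Ranks 2 and 3 were close to each other in length, at 1047 and 1053 nt, and in T3 level. Rank 2 had 2198 counts in the T3 library and 565 in the control library, a ratio of 3.18 (2.90 to 3.497). Rank 3 had 2226 counts in the T3 library and 477 in the control library, a 3.81-fold ratio (3.46 to 4.22). The T3 levels thus differed little, at 364 and 368 CPM, and the lower control level of rank 3 (96.5 CPM, against 114 CPM for rank 2) made its ratio the larger one. Members next to each other in rank have close summed counts, so close T3 levels follow in part from the ranking. Whether these genes share sequence, and so reads, was not tested.

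Rank 4 was the shortest member, with 270 nt. It had 1311 counts in the T3 library and 278 in the control library, and was 3.85-fold higher (3.39 to 4.41). Its level per length was the highest of all members in both libraries, with a deposited FPKM (fragments per kilobase per 1000000 fragments) of 89.3 in the T3 library and 23.1 in the control library. At the coding lengths used here, the deposited FPKM are 9 times lower than this definition gives. FPKM are therefore read here as relative levels between genes and not as absolute ones. Rank 5 (2565 nt) had 1165 counts in the T3 library and 379 in the control library, and its ratio of 2.51 (2.24 to 2.83) was the second lowest of the 53. Rank 6 (741 nt) had 912 counts in the T3 library and 145 in the control library. With a ratio of 5.13 (4.31 to 6.17) it was the only one of these 6 members above 4-fold.

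The 7 members with 500 to 999 counts fell apart in ratio. In rank 7 (3864 nt) there were 820 counts in the T3 library and 165 in the control library, a ratio of 4.06 (3.44 to 4.84). Ranks 8, 9, 10 and 13 had 401 to 490 counts in the T3 library and 130 to 152 in the control library, and their ratios lay between 2.52 and 2.73. Rank 11 (579 nt) had 515 counts in the T3 library and 71 in the control library, which is 5.90-fold higher (4.62 to 7.72). GS_017007, of rank 12 and 921 nt long, had 493 counts in the T3 library (81.6 CPM) and 60 in the control library (12.1 CPM). Its ratio of 6.67 (5.13 to 8.94) was the highest among the members, and it also had the highest lower bound. Ranks 11 and 12 had T3 counts like those of ranks 8 to 10 and control counts that were lower. This follows in part from the order by counts over both libraries, most of which were T3 counts.

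**Figure D2:**
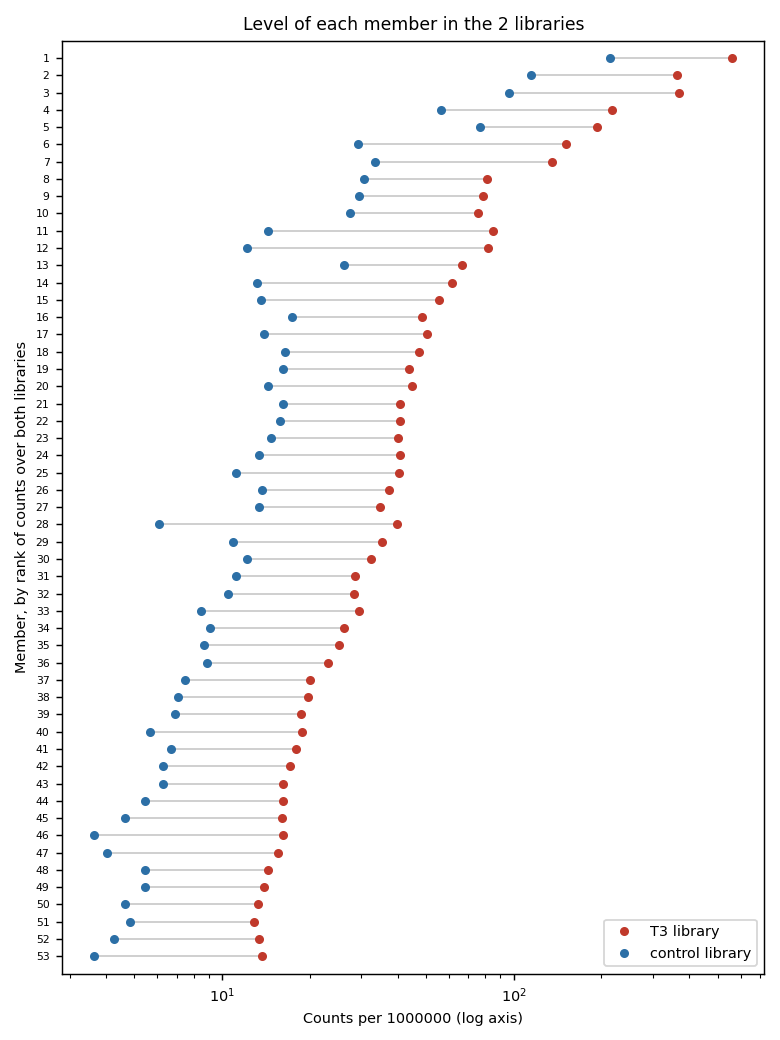
Counts per 1000000 (log axis) of each of the 53 members in the T3 library and the control library, ordered down the page by counts over both libraries. T3 levels run from 12.9 to 563 CPM and control levels from 3.64 to 214 CPM; the long lines of ranks 11, 12 and 28 mark ratios of 5.90, 6.67 and 6.45.

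Among the 21 members with 200 to 499 counts, T3 counts ran from 158 to 371 and control counts from 30 to 86. Their median ratio was 2.85. Rank 28 (1419 nt) had 240 counts in the T3 library and 30 in the control library, a ratio of 6.45 (4.47 to 9.91). Rank 14 (2376 nt) had 371 counts in the T3 library and 65 in the control library, a ratio of 4.64 (3.58 to 6.18). Rank 15 (1215 nt) had 334 counts in the T3 library and 67 in the control library, a ratio of 4.05 (3.13 to 5.39). The other 18 members of the class lay between 2.51-fold and 3.61-fold.

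The 19 members with 100 to 199 counts had 78 to 152 counts in the T3 library and 18 to 44 in the control library. Their ratios ran from 2.51 to 4.36, with a median of 2.75. The highest was that of rank 46 (4572 nt), with 98 counts in the T3 library and 18 in the control library, and its interval of 2.68 to 7.83 was wide. Rank 53 (2118 nt), with 83 counts in the T3 library and 18 in the control library, had a ratio of 3.69 (2.25 to 6.68). No member had 0 counts in a library, and the lowest control count was 18, so no ratio here rests on an empty library.

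Over all 53 members, 31 ratios were under 3, 14 lay from 3 to 4, and 8 were at least 4. The median was 2.80-fold, with quartiles of 2.65 and 3.604. Most members thus lay close to the limit of 2.5 that chose them. The 8 members at 4-fold or more were spread over all 4 count classes (ranks 6, 7, 11, 12, 14, 15, 28 and 46). Across the 53 members, Spearman's rho was 0.16 between counts over both libraries and log2 ratio and -0.06 between control CPM and log2 ratio. Over all eligible genes, which are not cut off at 2.5-fold, the same values were -0.09 and -0.32. These are correlations across genes of the same pair of libraries, in which a count enters both measures, and they are given only as a description.

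Depth set how well a ratio was known. The upper bound of the interval was 1.15 to 1.43 times the lower bound for members with at least 1000 counts, and 2.03 to 2.97 times for those with 100 to 199 counts. All 53 intervals lay above 1.5-fold, the lowest bound being 1.63, where 140 of the eligible genes (1.81%), members included, did so. The limits on counts and ratio nearly fix this for the members: the gene of 110 counts and ratio 2.48 just outside the set had a lower bound of 1.61. For 35 members the interval lay wholly above 2-fold. Over the 7748 eligible genes, members included, 38 intervals (0.49%) did so, and only 3 of these were of genes outside the set. By count class the members above 2-fold were 6 of 19, 16 of 21, 7 of 7 and 6 of 6, in rising order of counts. In the classes of 7 and 6 members the limits on counts and ratio nearly fix this too. Rank 13, with 531 counts and a ratio of only 2.52, still had a lower bound of 2.07. The share of eligible genes above 2-fold is not given by class. In the opposite direction, 118 eligible genes (1.52%) had an interval wholly beyond 2-fold. Both numbers of eligible genes beyond 2-fold are for library totals, and that of the lower side is not given under the other scalings.

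The limit of 2.5 itself was exceeded by the whole interval in 13 members (0.168% of the eligible genes, none of them outside the set). For the other 40 a value under 2.5-fold lay within counting error, and 141 eligible genes outside the set had an interval that reached 2.5. The last member inside the limit, rank 21, had a ratio of 2.505 from 246 counts in the T3 library and 80 in the control library. The first gene outside had a ratio of 2.489 from 2791 counts in the T3 library and 917 in the control library, and its interval of 2.31 to 2.69 was narrower than those of most members. At the count limits, a gene of 669 nt with 85 counts in the T3 library and 12 in the control library was left out at 97 counts although its ratio was 5.60. A gene of 1197 nt with 5241 counts in the T3 library and 1642 in the control library, 2.61-fold higher, was left out above the window. At the length limit, the longest member had 8892 nt, and the next gene that met the count and ratio limits had 10155 nt and a ratio of 2.74. The set therefore has an edge that is set by the limits and not by a gap in the values.

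**Figure D3:**
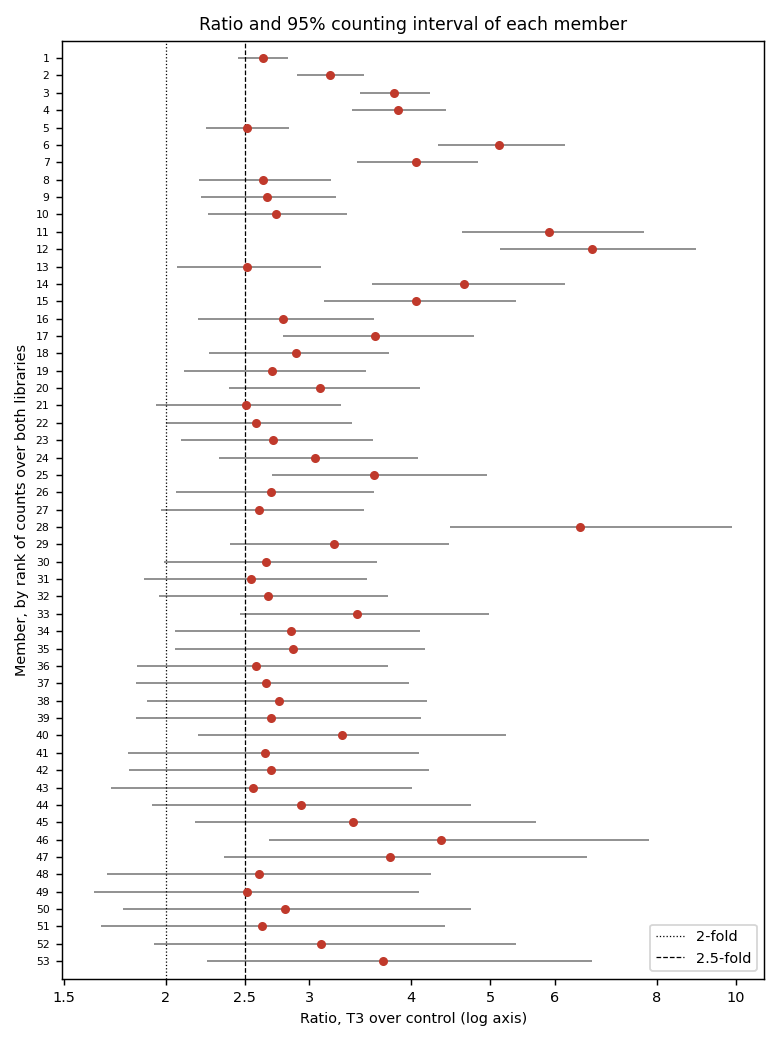
Ratio of T3 over control (points) with its exact 95% counting interval (lines) for the 53 members, ordered down the page by counts over both libraries, on a log axis. Intervals widen from rank 1 (2.46 to 2.82) to rank 53 (2.25 to 6.68), and 35 of them lie wholly above the dotted line at 2-fold.

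Some counting intervals of the members did not overlap. The same ratios chose the members and picked out those named here. The intervals were not adjusted for the number of pairs compared, so what follows is a description without a test. The interval of GS_017007 lay wholly above those of 41 of the 52 other members. Ranks 11 and 28 each lay above 35 others, and rank 6 above 32 others. The intervals of these 4 members overlapped one another, so their order is not resolved by counting. At the low end, the intervals of ranks 1 and 5 each lay wholly below those of 10 others. Among the 19 members with 100 to 199 counts, no interval lay above that of any other member.

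Coding length entered the rule only through its upper limit. The members had a median coding length of 1419 nt, with quartiles of 972 and 2247 nt and a range of 270 to 8892 nt. The eligible genes had a median of 1539 nt, with quartiles of 918 and 2619 nt, and the genes of the mirrored rule a median of 1278 nt. The members' median was below the eligible median with library totals only. Under each of the alternative scalings given below it was above, at 1542 to 1724 nt. Members were 0.636% of the 943 eligible genes under 600 nt, 0.843% of the 1898 genes from 600 to under 1200 nt, 0.817% of the 2694 genes from 1200 to under 2400 nt and 0.407% of the 2213 longer ones. The genes of the mirrored rule made up 2.65%, 2.16%, 1.60% and 1.27% of the same classes. Their share thus went down with each class of length, whereas the share of the members was highest in the middle classes. These shares were taken with library totals only. They rest on 6, 16, 22 and 9 members and were not tested. With library totals the median log2 ratio of all eligible genes rose over the same length classes, at -0.19, -0.15, -0.08 and -0.03. Whether the shares follow this general shift was not tested. The 9 longest members had 2502 to 8892 nt, and of these only rank 7 and rank 46 were above 4-fold.

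**Figure D4:**
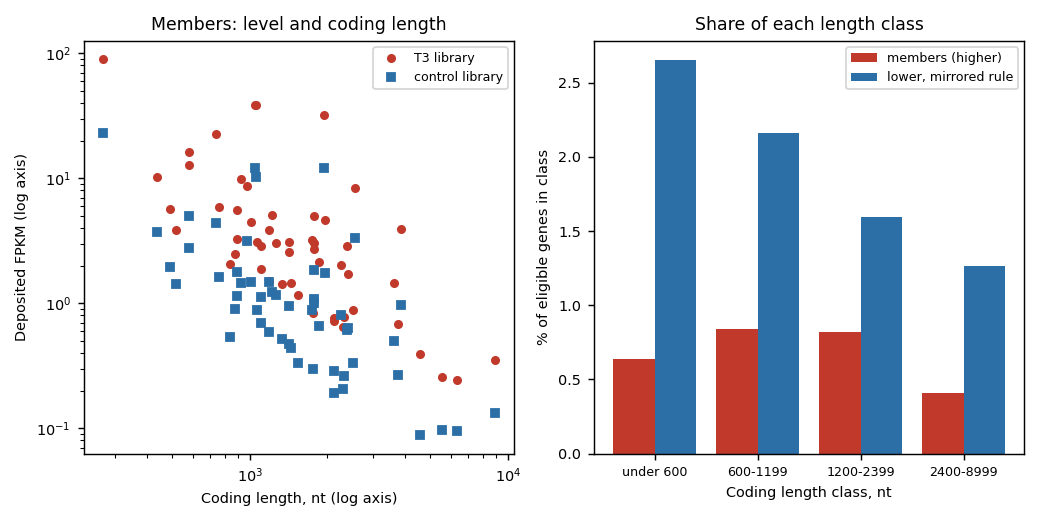
Left, deposited FPKM against coding length in nt (both log axes) for the 53 members in the T3 and control libraries. Right, the percentage of eligible genes in 4 coding length classes that were members (0.636, 0.843, 0.817 and 0.407%) or were lower by the mirrored rule (2.65, 2.16, 1.60 and 1.27%).

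Per length, the members were on the low side of the eligible genes in the control library and on the high side in the T3 library. Their median FPKM was 3.05 in the T3 library, where the eligible median was 1.43, and 0.954 in the control library, where the eligible median was 1.54. In the T3 library 40 of 53 members lay above the eligible median, against 15 of 53 in the control library. Since a gene's total count was limited to a window and its ratio to high values, a low control level and a high T3 level follow in part from the rule, and these positions are a description. Among the eligible genes the median member ranked 2038 by FPKM in the T3 library and 5165 in the control library.

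The levels per length spanned a wide range. FPKM ran from 0.244 (rank 49, 6333 nt) to 89.3 (rank 4) in the T3 library, and from 0.0885 (rank 46) to 23.1 (rank 4) in the control library. The control FPKM of rank 46 was the lowest of all 7748 eligible genes. This follows in part from the rule, since a gene with few control counts reaches the count minimum only through its T3 counts. The lowest control count was 18 among the members and 26 among the other eligible genes. In the T3 library rank 46 was at 0.394 FPKM, still only rank 7162 of 7748. GS_017007 stood at rank 601 with 9.84 FPKM in the T3 library and at rank 4019 with 1.46 FPKM in the control library. Rank 28 stood at 2008 with 3.11 FPKM in the T3 library and at 6865 with 0.475 FPKM in the control library. Among the members FPKM was lower in longer genes (Spearman's rho -0.67 with control FPKM, -0.74 over the eligible genes), which the count window in part sets, since FPKM divides the count by the length.

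The members were scattered over the ID order, with a median gap of 295 IDs. A single pair had consecutive IDs. The first of the pair, rank 34 (891 nt), had 158 counts in the T3 library and 45 in the control library, a ratio of 2.85 (2.05 to 4.10). The second, rank 47 (837 nt), had 94 counts in the T3 library and 20 in the control library, a ratio of 3.77 (2.35 to 6.58). Their lengths were close, and although the first ratio lay near the member median and the second above the upper quartile, the intervals overlapped. The ID before the pair had 125 counts in the T3 library and 110 in the control library, a ratio of 0.929, and the ID after it had 0 counts in the T3 library and 6 in the control library. Nothing in the sources used here says that IDs follow position in the genome, and whether the pair shares reads was not tested.

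Whether IDs next to members share their ratios was not tested, and the values are given as a description. Of the 46 eligible genes directly before or after a member, 3 were at least 2-fold higher (6.52%), and 2 of these 3 are the consecutive pair itself. Over the neighbours of all eligible genes the share was 1.60%. The median log2 ratio of the members' neighbours was -0.10, the same as over the neighbours of all eligible genes to this precision. At the other end, 5 of the 46 neighbours (10.9%) had a ratio of at most 0.5, against 3.82% over the neighbours of all eligible genes. At a distance of 2 IDs, 4 of 37 neighbours (10.8%) were that low, against 3.65% over all eligible genes, and at a distance of 10 IDs 1 of 37 (2.70%), against 3.98%. At both distances 0 of 37 were at least 2-fold higher, where the shares over all eligible genes were 1.46% and 1.52%, so that less than 1 such gene would be counted at the same share. These shares rest on few genes and were not tested.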

How the data were processed

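Poly(A)-selected RNA was sequenced as paired-end Illumina reads, per the labels' protocols. Per the file headers, the deposited values are raw read counts and FPKM for each gene in each library. The submitters' processing notes list TopHat2 2.0.12, HTSeq 0.6.1 and, without a version, edgeR. Genome build, annotation and strand setting: not given in the sources used here. FPKM as deposited imply a length for each of 20038 genes that was a whole number (tolerance 0.05) and a multiple of 9. Division by 9 gave the coding length, a multiple of 3 for all 7748 eligible genes. Reading the 9 as part of the FPKM scale is stated by no label and leaves ratios of counts unaffected. On this reading the deposited FPKM are 9 times lower than the counts and coding lengths give. It does bear on levels in FPKM and on results with a value added to the FPKM. For 1 eligible gene with 0 counts in the T3 library, the length came from the control FPKM. The table had 0 unused columns of sample values.

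Counts were scaled by library totals, as the rule states, and CPM are counts per 1000000 of that total. Ratios are T3 over control with 0.5 added to each count. Exact 95% Clopper-Pearson intervals, computed on the share of each gene's counts that fell in the T3 library, were turned into ratios without the 0.5 (Python 3.11.15, scipy 1.17.1). They cover counting error of independent reads only. For the members they do not allow for the choice of these genes by the same counts. PCR copies of a molecule were not told apart, so the intervals may be too narrow. With 1 library per group no p-value is given. The interval calculation was checked on simulated counts that varied by counting error alone (Poisson). The interval assumes this spread, so the check covers the calculation and not the spread of these libraries. The check was made over all genes in the count window, without a choice by ratio. Alternative scalings used edgeR 4.0.16 and DESeq2 1.42.0 under R 4.3.3.

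None of the IDs (0) matched the 30478 genes of the reference table, so gene lists could not be used. IDs are printed for the member with the highest lower bound and the member with the most counts; the others were described with their values known. The members and the rules were chosen with earlier results of these data known. IDs with a suffix were left out as starting points of the search for neighbours.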

Additional observations from a re-analysis of the deposited data

How the results depend on the processing

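Library totals gave the fewest members of the 5 scalings. All 53 were also chosen under the other 4, which gave 61 genes with TMM, 60 with DESeq2 size factors, 68 with the upper quartile and 80 with totals that leave out the 20 most abundant genes. The last moved every log2 ratio by 0.16 and the eligible median to 0.06. The summed ratio was 3.34, 3.33, 3.40 and 3.55 under these 4 scalings, and 3.30 without the member with the most counts. The number of genes depended most on the limits. Of the same 7748 eligible genes, 122 passed at 2-fold, 8 at 4-fold, and 13 with the lower bound of the interval at 2.5 or more. A minimum of 200 counts gave 34 genes, and no count window gave 694. Both of these settings change which genes are considered, so their counts are not shares of the 7748. Intervals lay wholly above 2.5-fold for 13 members and above equal abundance for 53, which the choice of members nearly fixes. Of the eligible genes, members included, 11.8% lay above equal abundance. On the deposited FPKM, 11 genes passed 2.5-fold with 1 added and 35 with 0.1 added. The members' median log2 ratio was 0.96 with 1 added, since an added value weighs more on low FPKM. These values depend on the factor of 9 in the scale of the deposited FPKM, and no other FPKM scale was run. Of 37 eligible IDs 2 away from a member, and of 37 at 10 away, 0 were at least 2-fold higher, where the share over all eligible genes was 1.46% and 1.52%, too low for a count of 0 to show a difference. At most 0.5-fold were 4 and 1 (10.8% and 2.70%, against 3.65% and 3.98%). These distances were chosen after seeing the data. The median coding length stayed between 1215 and 1724 nt in the alternatives run. Under each of the 4 other scalings it was above the eligible median of 1539 nt, and with library totals below it. GS_001888 was 2.94-fold higher without the 20 most abundant genes. No paired analysis was possible because there is a single library per group, and leaving out a library would leave no comparison. Depth limits the low end: with library totals, 18 of 53 members were not above 2-fold beyond counting error. The number of intervals wholly above 2-fold also moved with the setting. It was 35 with library totals, 41 to 48 with the other 4 scalings, and 25 with 99% intervals.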
